A study of Mus musculus with 6 samples.

Results

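The data concern 40 genes of the cell division cycle, read in single immune cells from mouse mammary tumours. The genes are a list of names, chosen by function but with earlier results of these data known: 19 act around DNA replication (S phase) and 21 in mitosis. All 40 were present, by Ensembl identifier, among the 30406 gene identifiers shared by the 6 libraries. The cells were live CD45+ cells, CD45 being the surface protein of blood-derived cells, sorted from mammary tumours grown in female mice by engrafting the mouse tumour line Py8119. The 6 groups held 1 library each. The first pair came from intact mice, either knocked out for Mtdh (KO) or wild type (WT). The other 4 came from irradiated mice given donor bone marrow, namely KO marrow in KO hosts, KO marrow in WT hosts, WT marrow in KO hosts and WT marrow in WT hosts. Engraftment followed 8 weeks after marrow transfer, tumours were taken at 4 weeks, and about 15000 cells entered each library. The labels give neither how the Mtdh allele was made, nor the number of mice behind a library, nor the host cells that survived irradiation. With 1 library per group no spread within a group can be measured, and every p-value rests on differences between libraries. Transplantation coincides with the version of the counting software, so the effects of the pair cannot be told apart.

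Of 41267 barcodes, 37988 cells were kept (5405 to 7654 per library, library medians of 10540.5 to 19007 UMIs, a UMI being 1 counted RNA molecule). Between 8 and 25 barcodes were shared by any pair of libraries. Mtdh in macrophages checked the labels: it stood at 15.2, 12.7 and 19.02 CPM (UMIs scaled to a common total) in the libraries with KO marrow or intact KO mice and at 109.8, 109 and 112 CPM in the others, as the marrow labels say. Cells were sorted by marker genes into 14 classes, which held 35479 of the kept cells. One of them, called mesenchymal-like here from Krt8 and Sparc, carried the CD45 transcript Ptprc at only 8.46 CPM, against 188 to 1127 CPM in the other 13 classes, and is therefore described only as a dividing comparison population. C1qa, an abundant macrophage transcript, was found outside the 2 macrophage classes at 2.43 to 6.55% of its macrophage level, which may include free RNA in the droplets.

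Cells duplicate their DNA in S phase and separate the copies in mitosis. Transcription factors of the E2F family switch on the replication genes late in G1, and the complex of MuvB with B-Myb or FOXM1 switches on the mitotic genes later, through a promoter element called the CHR that often stands near CCAAT boxes. Among tumour-infiltrating cells, activated T cells, some tissue macrophages and precursors of dendritic cells are known to divide, whereas mature neutrophils are known to have left the cycle.

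The promoters of the S-phase and mitotic members differed in their letters, and 7 are printed to show the motifs of each role. Each stretch runs from 120 bases before to 30 bases after the annotated start, 5′ to 3′ on the gene's strand, from RefSeq (GRCm38.p6). Capitals mark TTTGAA (the CHR core), CCAAT and an E2F core in the form TTCCCGC, the form TTCGCGC, the form TTGCCGC or the form TTGGCGC, on either strand. Overlapping E2F cores run together. The first 4 belong to mitotic members, namely Top2a (topoisomerase that untangles sister DNA), Mki67 (coat protein of mitotic chromosomes), Ccnb2 (B-type cyclin) and Cdc20 (activator of the ubiquitin ligase of mitotic exit).
Top2a, chr11:99024160-99024309, minus strand: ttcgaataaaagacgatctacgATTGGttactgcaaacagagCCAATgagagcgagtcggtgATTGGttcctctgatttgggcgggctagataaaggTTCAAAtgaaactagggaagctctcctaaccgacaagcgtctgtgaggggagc
Mki67, chr7:135716350-135716499, minus strand: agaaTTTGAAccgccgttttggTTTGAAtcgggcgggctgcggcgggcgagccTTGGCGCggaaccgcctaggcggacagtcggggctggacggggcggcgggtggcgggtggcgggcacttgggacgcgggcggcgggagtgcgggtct
Ccnb2, chr9:70421525-70421674, minus strand: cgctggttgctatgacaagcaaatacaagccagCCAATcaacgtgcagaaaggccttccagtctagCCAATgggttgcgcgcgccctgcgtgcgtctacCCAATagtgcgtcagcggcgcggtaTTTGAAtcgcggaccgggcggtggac
Cdc20, chr4:118437314-118437463, minus strand: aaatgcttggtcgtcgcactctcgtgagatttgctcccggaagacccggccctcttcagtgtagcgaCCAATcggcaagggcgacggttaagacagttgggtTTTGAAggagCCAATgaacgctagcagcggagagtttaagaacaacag
The next 3 belong to S-phase members, namely Mcm3 and Mcm6 (subunits of the replicative helicase) and Rrm1 (large subunit of ribonucleotide reductase).
Mcm3, chr1:20820283-20820432, minus strand: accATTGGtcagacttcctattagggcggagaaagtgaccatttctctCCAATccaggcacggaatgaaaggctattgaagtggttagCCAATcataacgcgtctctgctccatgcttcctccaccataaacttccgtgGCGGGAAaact
Mcm6, chr1:128359676-128359825, minus strand: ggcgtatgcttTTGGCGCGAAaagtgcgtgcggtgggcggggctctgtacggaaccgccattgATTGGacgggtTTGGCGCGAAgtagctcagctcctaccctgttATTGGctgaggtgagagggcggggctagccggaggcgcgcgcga
Rrm1, chr7:102441575-102441724, plus strand: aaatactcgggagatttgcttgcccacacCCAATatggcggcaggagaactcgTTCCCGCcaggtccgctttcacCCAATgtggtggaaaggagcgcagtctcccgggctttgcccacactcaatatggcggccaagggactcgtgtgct

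Motifs were counted per gene over its whole 300-base windows (250 before to 50 after the start), which 17 mitotic and 15 S-phase members had, Mcm7 and Uhrf1 with 2 windows each. TTTGAA stood in the windows of 12 of 17 mitotic members (70.6%) and of 1 of 15 S-phase members (6.67%, Mcm2), against 20.2% of 27025 genes. An E2F core stood in those of 4 mitotic members (23.5%) and 9 S-phase members (60%), against 10.9% of all. CCAAT was frequent in both, at 88.2% of mitotic and 60% of S-phase members against 41.1% of all. Aurkb, Ccna2, Ccne2, Gins2, Kif20a, Mcm4, Stmn1 and Tpx2 had no window. These matches describe letters, not binding sites.

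The mitotic genes were most abundant in CD8 T cells. Summed over the 21 genes, their level was 1242 ± 423 CPM (mean ± SD, n = 6 libraries) in CD8 T cells, 1069 ± 679 CPM in conventional CD4 T cells, 978 ± 256 CPM in mesenchymal-like cells and 934 ± 428 CPM in cDC1, the dendritic cells that present antigen to CD8 T cells. Macrophages, the largest class with 24946 cells, stood at 468 ± 181 CPM, and macrophages with little C1q RNA at 782 ± 341 CPM. Within a library, the level was above that of macrophages in 6 of 6 libraries for cDC1 and mesenchymal-like cells and in 5 of 6 for CD8 T cells, C1q-low macrophages and cDC2. The CD4 T-cell level was above it in 4 of 6, and the CD8 exception was the intact WT library, with 71 CD8 T cells.

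At the other end stood monocytes, the blood precursors of macrophages, at 31.5 ± 16.4 CPM, and mature dendritic cells at 103 ± 71.4 CPM. If all the C1qa RNA seen in monocytes were free macrophage RNA, it would bring 22.4 CPM of mitotic RNA with it. Whether it was free RNA was not tested. B cells held 161 ± 213 CPM and neutrophils 198 ± 293 CPM, with SDs above their means. The remaining classes fell between, with regulatory T cells at 702 ± 746, NK cells at 618 ± 404, cDC2 at 542 ± 265 and gamma-delta T cells at 413 ± 589 CPM. Above the mature dendritic cells, neighbours in this order lay closer together than their SDs over libraries.

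The S-phase genes gave a partly similar order with a narrower range. Stmn1 alone held 22.9% of all S-phase UMIs, with 341 CPM in CD8 T cells and 240 CPM in NK cells. The order without it was not compared. CD8 T cells held 989 ± 295 CPM over the 19 genes, cDC1 863 ± 351 CPM, NK cells 836 ± 289 CPM, conventional CD4 T cells 788 ± 316 CPM and macrophages 482 ± 113 CPM. Monocytes were again lowest at 132 ± 36.6 CPM. NK cells, cDC1 and mesenchymal-like cells (672 ± 83.8 CPM) were above the macrophages of their own library in 6 of 6 libraries. By single genes, among the 8 classes with at least 20 cells in every library, CD8 T cells had the highest mean level for 11 of 21 mitotic and 10 of 19 S-phase members. Mesenchymal-like cells led for 7 mitotic and 2 S-phase members, NK cells for 4 S-phase members, C1q-low macrophages for Bub1 and Bub1b (kinases of the spindle checkpoint), and macrophages for E2f1 alone.

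**Figure D1:**
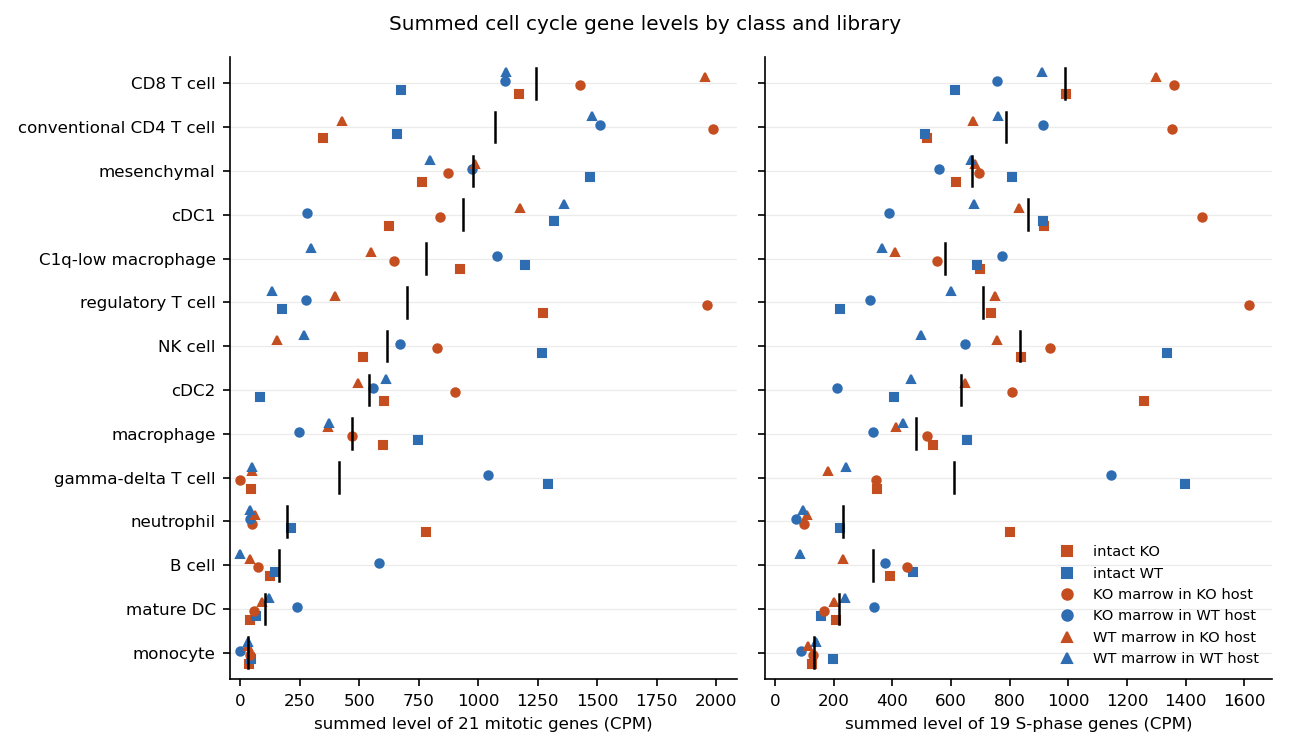
Summed level of the 21 mitotic and the 19 S-phase genes (CPM) by class, 1 point per library. CD8 T cells had the highest mean mitotic level, 1242 CPM, and monocytes the lowest, 31.5 CPM.

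The share of cells in division was read after each cell was thinned to 2000 UMIs, since deeper cells show more genes. A cell was counted as dividing when it then held at least 2 mitotic UMIs. By that measure cDC1 led, with 24.1 ± 5.85% dividing cells (mean ± SD, n = 6 libraries, range 17.9 to 32.1%), although each library held only 16 to 53 of them. Mesenchymal-like cells followed at 14.4 ± 4.19%, CD8 T cells at 11.9 ± 5.43%, regulatory T cells at 11.3 ± 8.53%, C1q-low macrophages at 10.7 ± 5.54% and NK cells at 10.03 ± 4.59%. The regulatory T-cell mean includes 25% from the library of WT marrow in the KO host, which held only 4 such cells. Macrophages stood at 7.12 ± 3.24%, conventional CD4 T cells at 8.104 ± 3.71% and cDC2 at 8.22 ± 5.51%. The ranges over libraries overlap, the highest CD8 library (18.3%) lying above the lowest cDC1 library.

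Monocytes set the background: 1 of 369 cells over the 6 libraries counted as dividing, a share of 0.271% (exact binomial 95% interval 0.00686 to 1.501%). Their median depth was 7294 UMIs, close to the 6732.5 UMIs of CD8 T cells and below the 16855 UMIs of macrophages. Without thinning, the shares were 5.95% in monocytes, 23.8% in CD8 T cells, 34.2% in macrophages, 42.1% in cDC1 and 68.9% in mesenchymal-like cells, an order that depth shapes. Neutrophils (1.796 ± 2.35%), B cells (0.908 ± 0.847%) and mature dendritic cells (2.31 ± 3.05%) were the next lowest. Their library values reached 5.48% in neutrophils and 7.50% in mature dendritic cells, and 473 of 1451 neutrophils were too shallow to be thinned. Cells removed as likely doublets divided more often by the same measure than kept ones, at 16.4 against 7.95%, so the removal lowers the shares. All intervals given for shares and levels of single libraries are exact 95% intervals and cover counting error only.

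**Figure D2:**
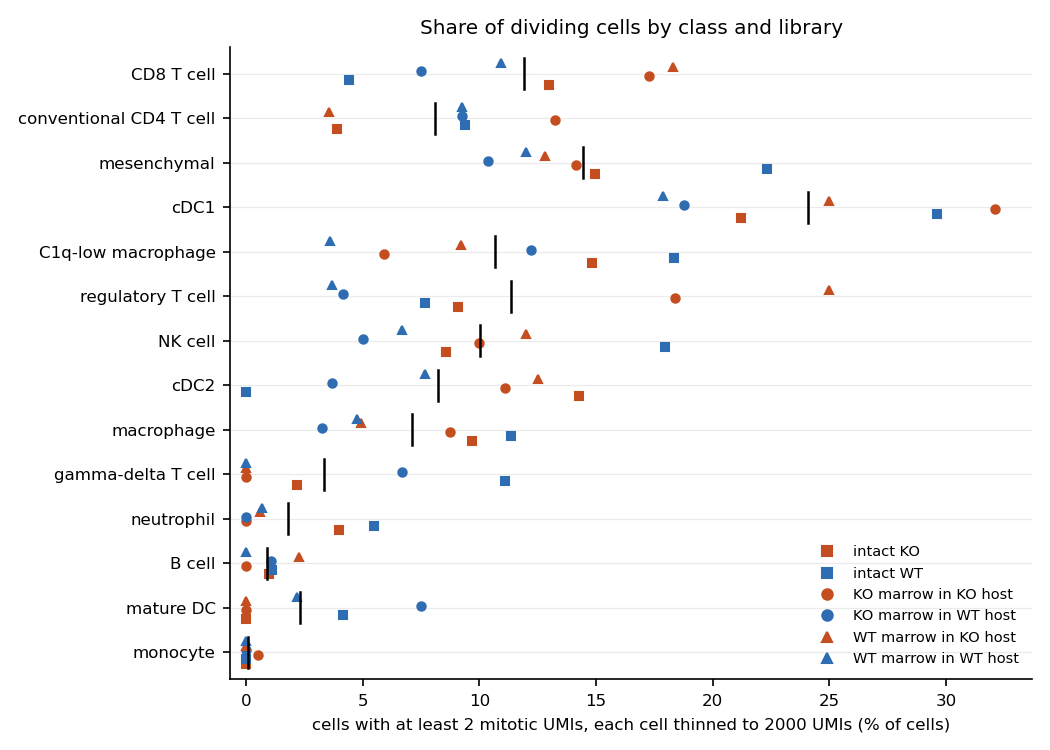
Share of cells with at least 2 mitotic UMIs after thinning to 2000 UMIs (percent) by class, 1 point per library. cDC1 averaged 24.1% and monocytes 0.0868%.

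Because of their number, macrophages nevertheless made up 49.8 to 76.8% of the dividing cells of a library. CD8 T cells made up 6.37% of them in the intact KO and 0.391% in the intact WT library, 30% with KO marrow in the KO host, 7.296% with KO marrow in the WT host, 5% with WT marrow in the KO host and 4.55% with WT marrow in the WT host. The library with KO marrow in the KO host stands apart, and it also held 1217 of the 2022 CD8 T cells. A few cells carried much of the signal in small classes: the 5 cells with most mitotic UMIs held 50.1 to 96.5% of the mitotic UMIs of cDC1 and 75.1 to 99.3% of those of NK cells, against 2.82 to 10.9% in macrophages.

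Each class with at least 20 cells in every library was then compared with the macrophages of the same libraries, gene by gene. These 7 comparisons share the macrophage sums. Values are log2 fold changes with SE from edgeR's quasi-likelihood test with a library block, called at a Benjamini-Hochberg adjusted p under 0.05 over all genes. In CD8 T cells 29 of 40 members were higher and 1 was lower, where 24.4% of all tested genes were higher and 34.1% lower. The higher members were 17 of 21 mitotic and 12 of 19 S-phase genes, with median differences of 1.13 and 0.78, against -0.14 for all genes. Among the spindle genes, Nusap1, which bundles microtubules, was higher by 1.86 (SE 0.37) and the motor Kif11 by 1.58 (SE 0.32). The centromere protein gene Cenpf was higher by 1.44 (SE 0.34) and Top2a by 1.46 (SE 0.37). For the machinery of mitotic exit, Ube2c was higher by 1.81 (SE 0.42) and Cdc20 by 1.73 (SE 0.34), and the cyclins Ccna2 and Ccnb2 were higher by 1.498 (SE 0.33) and 1.49 (SE 0.40). Among the S-phase members, Rrm2, the small subunit of ribonucleotide reductase, was higher by 1.91 (SE 0.47), and Stmn1, a protein that destabilises microtubules, by 1.59 (SE 0.34). C1qa in CD8 T cells stood at 2.72% of its macrophage level.

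E2f1, the activator of replication genes, went the other way. Its macrophage level was 18.1 ± 2.198 CPM (SD, n = 6 libraries), and it was called lower than in macrophages in all 7 classes compared: -0.26 in C1q-low macrophages, -0.54 in mesenchymal-like cells, -0.85 in NK cells, -1.19 in CD8 T cells, -1.71 in conventional CD4 T cells, -1.899 in neutrophils and -2.94 in mature dendritic cells. Of the genes tested in all 7 comparisons, which share the macrophage sums, 3.79% were lower in every one. No other member was lower in more than 3 of the classes, and no member was called higher in more than 4.

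In mesenchymal-like cells 23 members were higher and 5 lower, with background shares of 36.3% and 40.6%. The higher ones were 15 mitotic and 8 S-phase genes. Cdc20 (1.82 (SE 0.20)), Ccnb1 (1.38 (SE 0.22)), the cytokinesis motor Kif20a (1.23 (SE 0.24)) and Hmmr (1.21 (SE 0.19)), a spindle protein, were highest. Top2a, Cdk1 (the kinase that drives mitosis), Ube2c, Cenpf, Birc5 (a chromosome passenger protein) and Cenpe (a kinetochore motor) followed at 1.13, 0.99, 0.98, 0.96, 0.89 and 0.89. Mki67 was lower, at -0.71 (SE 0.17), although the other mitotic genes called were higher. Pcna, the sliding clamp of replication, was lower at -0.88 (SE 0.06), Mcm3 at -0.66 (SE 0.06), E2f1 at -0.54 (SE 0.10) and Ccne2, a cyclin of S-phase entry, at -0.43 (SE 0.13).

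All members called higher in NK cells than in macrophages were S-phase genes. Of the S-phase members 9 of 19 were higher, and of the 21 mitotic members none, where 19.8% of all genes were higher and 32.0% lower. The 9 were Rrm2 (1.22 (SE 0.24)), Mcm6 (1.22 (SE 0.15)), Stmn1 (1.02 (SE 0.14)), the licensing factor Cdc6 (0.98 (SE 0.33)), the thymidylate synthase Tyms (0.97 (SE 0.18)), Ccne2 (0.95 (SE 0.31)), Mcm7 (0.81 (SE 0.18)), Mcm2 (0.70 (SE 0.20)) and Mcm5 (0.59 (SE 0.18)). Bub1b was lower at -0.75 (SE 0.29). Without a call, Top2a stood at 0.41 and Mki67 at -0.35 there. The summed mitotic level was 618 ± 404 CPM in NK cells and 468 ± 181 CPM in macrophages, higher in NK cells in 3 of 6 libraries. As given above, a few cells held most mitotic UMIs of NK cells. The lack of higher mitotic calls therefore does not show equal levels.

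C1q-low macrophages had 8 of 40 members higher and 1 lower than the C1q-high ones, where 14.4% of all genes were higher and 17.5% lower, so the members were scarcely more often higher than genes in general. The higher members were Rrm2 (0.90 (SE 0.20)), Nusap1 (0.87), Bub1b (0.84), Ccna2 (0.83), Bub1 (0.77), Ccnb2 (0.68), Kif20a (0.68) and Ccne2 (0.58). In conventional CD4 T cells 4 members were higher, namely Rrm2 (1.48 (SE 0.39)), the spindle assembly factor Tpx2 (0.96 (SE 0.28)), Mcm6 (0.76 (SE 0.22)) and Mcm7 (0.71 (SE 0.27)), and 1 was lower. As shares of 40 these lie below the background of 16.4% higher and 24.1% lower. Mature dendritic cells had 0 members higher and 31 lower (background 18.2% and 26.8%), from -5.30 for Cenpf, -3.67 for Ccnb1, -3.38 for Cdc6, -3.21 for Cenpe and -3.002 for Ccnb2 to -2.77 for Ube2c, -2.76 for the spindle kinase Aurka, -2.75 for Ccne2 and -2.68 for Kif20a. Neutrophils had 0 higher and 34 lower (background 21.6% and 31.7%). Cenpf (-4.32), Kif20a (-3.75), the kinases Plk1 (-3.11) and Aurkb (-2.97), and Cenpe (-2.88) were lowest there, followed by Mcm3 (-2.75), Mcm6 (-2.72), Ube2c (-2.695), the thymidine kinase Tk1 (-2.203) and Cdc20 (-2.16).

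**Figure D3:**
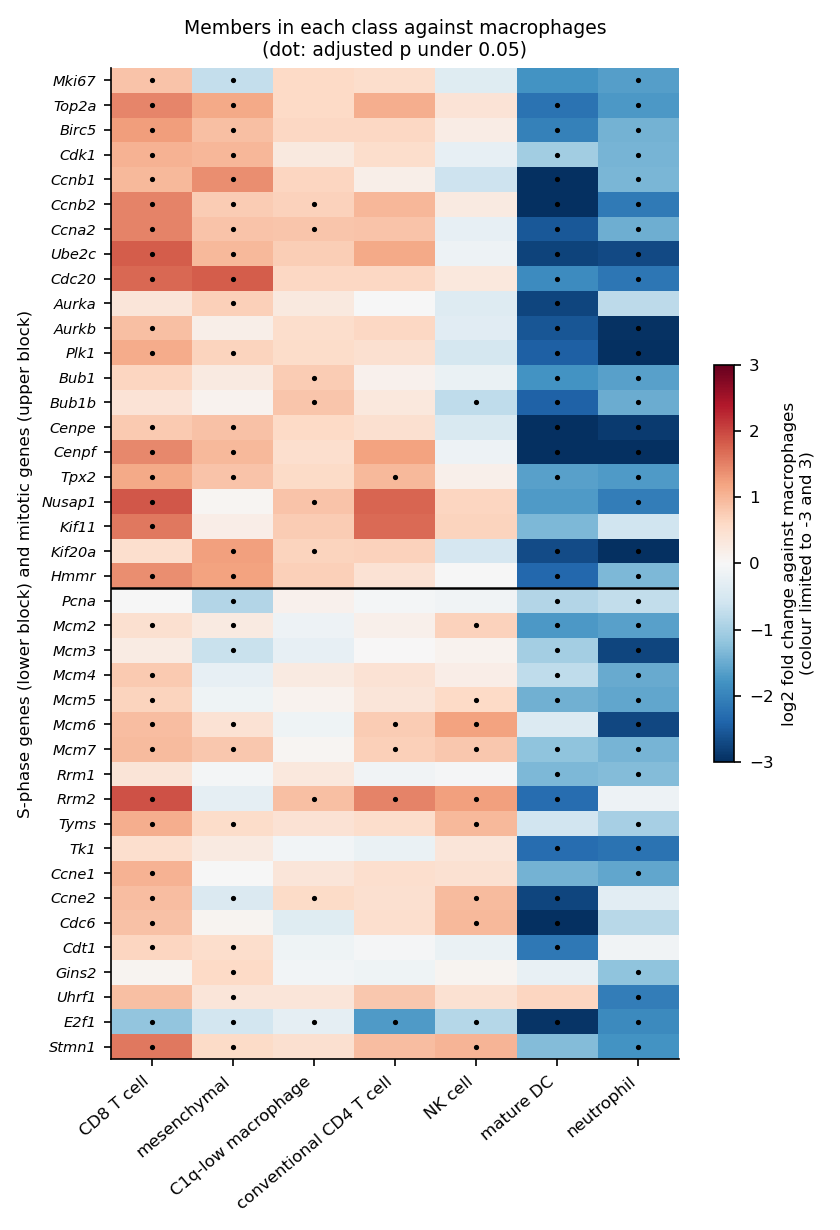
Log2 fold change of each member in 7 classes against the macrophages of the same libraries, with called members marked. CD8 T cells had 29 of 40 members higher and neutrophils 34 of 40 lower, and E2f1 was lower in all 7 columns.

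The balance of S-phase to mitotic RNA differed between classes. The ratio of the summed levels was 0.709 ± 0.125 in mesenchymal-like cells, 0.812 ± 0.118 in CD8 T cells, 0.809 ± 0.217 in C1q-low macrophages and 1.08 ± 0.178 in macrophages (mean ± SD, n = 6 libraries). It was 1.92 ± 1.49 in NK cells. In the 3 classes of lowest mitotic level it was 3.73 ± 0.596 in monocytes, 2.64 ± 1.27 in mature dendritic cells and 3.74 ± 2.19 in B cells. Gamma-delta T cells, with a higher mitotic level, had 3.64 ± 2.80. In monocytes, B cells and gamma-delta T cells a library without mitotic UMIs had no ratio and was left out of the mean. In macrophages the ratio was 0.895 and 0.877 in the intact libraries and 1.098 to 1.35 in the 4 transplanted ones, without overlap. Among dividing macrophages, 64.7 to 73.2% also held at least 2 S-phase UMIs, so most cells counted by mitotic genes carried replication genes as well.

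The other 66 cell cycle genes listed followed the members where their function is replication or mitosis. In CD8 T cells against macrophages, 14 of 19 replication fork and repair genes were higher and 0 lower (median 0.84), among them Dut (2.51), which clears dUTP, Hells (1.65) and Chek1 (1.58). Of the condensin, kinetochore and cytokinesis genes 16 of 21 were higher and 1 lower, with Ncapg at 1.63 and the separase gene Espl1 at -1.91. Of all genes 24.4% were higher in CD8 T cells. In NK cells 14 of 19 replication fork and repair genes were higher, against 5 of 21 of the condensin list, the latter close to the 19.8% of all genes higher there.

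The genes that govern G1 were split by cell type. Among the G1 cyclins and kinases, Ccnd3 (2.19), Cdk6 (2.05) and Ccnd2 (1.09) were higher in CD8 T cells than in macrophages and Ccnd1 was lower (-5.09). Of the 7 CDK inhibitors, which brake the cycle, 5 were higher in CD8 T cells, with Cdkn2d at 1.31, Cdkn2c at 1.16, Cdkn2b at 1.04 and Cdkn2a at 0.98, while Cdkn1a (p21) was lower at -3.89 and Cdkn1c at -1.95. In neutrophils Cdkn2d (2.41), Cdkn1b (1.81) and Cdkn1a (1.498) were higher than in macrophages. Of the 12 RB, E2F, MYB and FOXM1 genes, 5 were higher in CD8 T cells, led by Rbl2 (1.54) and E2f7 (1.28), and Rb1 was lower (-0.99).

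The host genotype was compared over 3 KO and 3 WT hosts, with terms for transplantation and marrow genotype. The share of dividing CD8 T cells was higher in each of the 3 KO hosts than in any of the 3 WT hosts. The dividing share was 12.98% (37 of 285 cells, 9.31 to 17.4%) in intact KO mice, 17.3% (198 of 1147 cells, 15.1 to 19.6%) with KO marrow and 18.3% (15 of 82 cells, 10.6 to 28.4%) with WT marrow in KO hosts. In WT hosts it was 4.41% (3 of 68 cells, 0.919 to 12.4%) in intact mice, 7.49% (17 of 227 cells, 4.42 to 11.7%) with KO marrow and 10.9% (14 of 128 cells, 6.11 to 17.7%) with WT marrow. Of the 14 classes, 3 had KO hosts above WT hosts without overlap, namely CD8 T cells, cDC2 and regulatory T cells, and mature dendritic cells had them below. In cDC2, 4 of 28, 3 of 27 and 2 of 16 cells divided in KO hosts (intact, KO marrow, WT marrow) and 0 of 26, 1 of 27 and 2 of 26 in WT hosts. The CD8 groups did not overlap, with means of 16.2 and 7.61%, and 3 libraries against 3 cannot give a two-sided exact permutation p below 0.1. The lowest KO and the highest WT host lay 12.98 against 10.9%, and their counting intervals overlap.

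Gene by gene, 39 of 40 members could be tested in CD8 T cells, since Kif20a was too low. With host genotype 2 of the 39 were called higher and 0 lower, where 1.54% of all 8516 genes were higher and 0.646% lower. Top2a (chr11:98992943-99024189, minus strand) stood at 256, 288 and 458 CPM in KO hosts (intact, KO marrow, WT marrow) and 129, 214 and 226 CPM in WT hosts (same order). The KO hosts were all higher, by 0.81 (SE 0.19, adjusted p = 0.037) on the log2 scale. Stmn1 (chr4:134468320-134473843, plus strand) stood at 318, 422 and 537 CPM in KO hosts (intact, KO marrow, WT marrow) and 163, 289 and 319 CPM in WT hosts (same order). It was higher in KO hosts by 0.72 (SE 0.17, adjusted p = 0.043) in the fit, although its unadjusted levels overlap, at 318 CPM in the intact KO library and 319 CPM with WT marrow in the WT host.

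Other members pointed the same way without passing the threshold. Rrm1 stood at 0.92 (SE 0.24, adjusted p = 0.065), Uhrf1, which copies DNA methylation at the fork, at 1.26 (SE 0.35, adjusted p = 0.085), and Birc5 at 0.66 (SE 0.19, adjusted p = 0.1). Of the 39 members 38 had a positive difference, Cdt1 (a licensing factor) being the exception at -0.39. The medians were 0.71 for S-phase and 0.60 for mitotic members against 0.00 for all genes. In unadjusted levels 16 of the 39 members had all 3 KO hosts above all 3 WT hosts and 0 the reverse, where 9.07% of all genes were so placed above and 4.18% below. The 16 were 9 S-phase and 7 mitotic genes.

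Among the members with most UMIs, given for every library by choice of abundance, the CD8 levels ran as follows. Mki67 stood at 145, 168 and 251 CPM in KO hosts (intact, KO marrow, WT marrow) and 102, 127 and 142 CPM in WT hosts (same order), so the groups are separate by a narrow margin. Ube2c stood at 123, 145 and 193 CPM in KO hosts (intact, KO marrow, WT marrow) and 46.7, 122 and 124 CPM in WT hosts (same order), and Birc5 at 89.5, 135 and 155 CPM in KO hosts (intact, KO marrow, WT marrow) and 46.7, 96.2 and 86.5 CPM in WT hosts (same order). Both overlap, because the intact KO library lies within the WT hosts and the intact WT library is lowest of all. For replication, Pcna stood at 114, 109 and 82.1 CPM in KO hosts (intact, KO marrow, WT marrow) and 72.1, 53.3 and 71.3 CPM in WT hosts (same order), with no overlap. Mcm3 stood at 57.2, 89.9 and 65.4 CPM in KO hosts (intact, KO marrow, WT marrow) and 46.7, 40.1 and 44.3 CPM in WT hosts (same order) and Mcm6 at 69.7, 103 and 85.7 CPM in KO hosts (intact, KO marrow, WT marrow) and 59.4, 49.8 and 72.4 CPM in WT hosts (same order). Mcm3 is separate by host and Mcm6 is not.

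**Figure D4:**
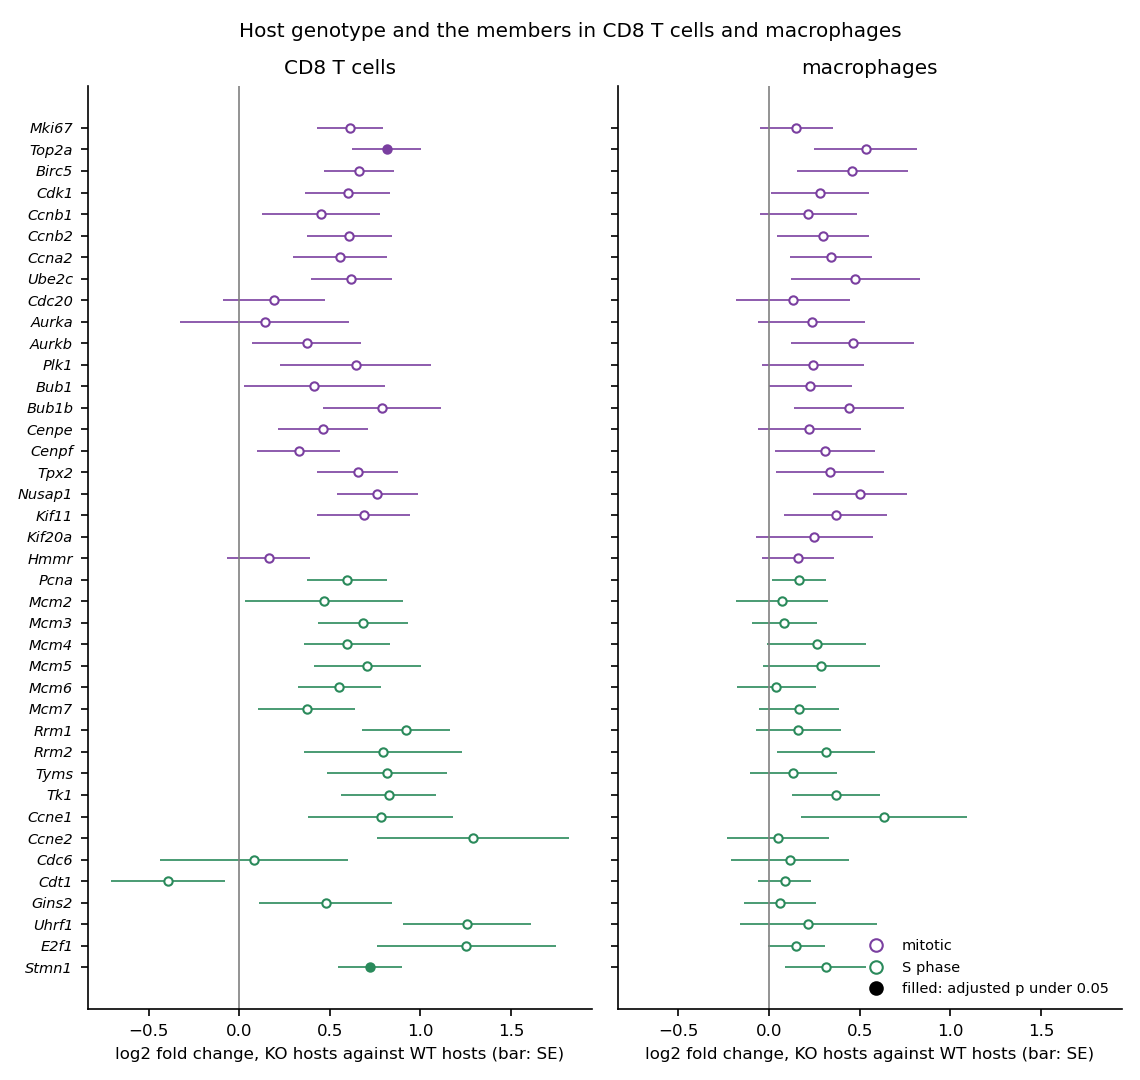
Log2 fold change with host genotype (KO over WT hosts, with SE) of each member in CD8 T cells and macrophages. In CD8 T cells 38 of 39 tested members lay above 0 and 2 passed the threshold, and in macrophages 40 of 40 lay above 0 and 0 passed.

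The part of the CD8 subset composition in the host difference is not analysed here. The 2 host calls fell to 0 with DESeq2, with doubled marker thresholds and without the intact WT library, and to 1 without the intact KO library, without KO marrow in the KO host or without WT marrow in the WT host.

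Of the other listed cell cycle genes in CD8 T cells, Lig1, which joins Okazaki fragments, was higher in KO hosts by 1.03 (SE 0.22, adjusted p = 0.019) and Dut by 0.90 (SE 0.20, adjusted p = 0.025), 2 of 18 tested replication fork and repair genes. Myc, a growth regulator, was lower at -1.36 (SE 0.33, adjusted p = 0.046), the only one of 10 tested RB, E2F, MYB and FOXM1 genes called. In conventional CD4 T cells Cdkn1a was higher by 1.702 (SE 0.31, adjusted p = 0.019).

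Macrophages showed 0 of 40 members called with host genotype by edgeR or DESeq2, and 0 at an unadjusted p under 0.05. Of all genes edgeR called 0.0% of 14826, whereas DESeq2 called 126 higher and 16 lower. All 40 differences were positive, with medians of 0.16 for S-phase and 0.30 for mitotic members, and none separated the hosts without overlap (background 3.76% higher and 4.47% lower). Their dividing share was 9.699% in the intact KO and 11.3% in the intact WT library, 8.73% with KO marrow in the KO host, 3.24% with KO marrow in the WT host, 4.93% with WT marrow in the KO host and 4.76% with WT marrow in the WT host. Both intact libraries were highest, and among the transplanted ones the KO host was above the WT host by a wide margin with KO marrow and a narrow one with WT marrow. No member was called in the other 6 classes either. Of all genes, 0.0181% were called in C1q-low macrophages (40 members tested), 0.0% in mature dendritic cells (6 tested), 0.0173% in neutrophils (8 tested), 0.0439% in conventional CD4 T cells (22 tested), 0.0751% in NK cells (30 tested) and 0.0894% in mesenchymal-like cells (40 tested), so edgeR called few genes of any kind there. At an unadjusted p under 0.05, 4 members were counted in NK cells, 3 in C1q-low macrophages, 2 in conventional CD4 T cells and 0 in the other classes, and DESeq2 called 0 in each. Of all genes DESeq2 called 58 higher and 7 lower in mesenchymal-like cells and 13 and 4 in C1q-low macrophages. It called at most 1 per direction in the others.

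The difference in host effect between CD8 T cells and macrophages was itself tested, in a fit of both classes with a library block that was added after seeing the data. Of the 40 members 0 were called, DESeq2 also called 0, and 8 had an unadjusted p under 0.05 in edgeR. Of all genes edgeR called 1.98%, and DESeq2 called 44 higher and 55 lower. The larger CD8 values are therefore not shown to differ from those of macrophages.

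Small classes are given as values only. Regulatory T cells divided at 9.09 to 25% with a KO host and 3.704 to 7.69% with a WT host, but the library of WT marrow in the KO host held only 4 such cells. Mature dendritic cells had 0 dividing cells in the 3 KO hosts, which by the limit of 3 counts allows shares of up to 4.76%, 3.75% and 8.33% (intact, KO marrow, WT marrow; the exact intervals end at 5.69, 4.51 and 9.74%), and 2.17 to 7.50% in WT hosts, a difference not detectable at this depth. In neutrophils of the intact KO library, 188 of 194 mitotic UMIs came from 4 cells rich in the precursor granule genes Ngp and Camp. The other neutrophils there held 36.6 CPM, against 215 CPM in intact WT and 40.7 to 61.97 CPM in the transplanted libraries.

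Marrow genotype was compared in the same fits, over 3 libraries whose immune cells carried the KO genotype and 3 that carried WT. No member was called in any of the 8 classes fitted, where edgeR called 0.0% of all genes in macrophages, 0.0% in mature dendritic cells and in neutrophils, 0.0362% in C1q-low macrophages, 0.0731% in mesenchymal-like cells, 0.0751% in NK cells, 0.0822% in CD8 T cells and 0.175% in conventional CD4 T cells. DESeq2 called 0 members as well, and at an unadjusted p under 0.05 edgeR counted 12 members in C1q-low macrophages and 0 to 4 in the others. Of all genes DESeq2 called 59 higher and 59 lower in C1q-low macrophages, 45 and 17 in macrophages, and 27 and 11 in mesenchymal-like cells. It called at most 1 per direction in the others. In CD8 T cells the dividing shares of the marrow groups interleaved, at 12.98, 17.3 and 7.49% with KO and 4.41, 18.3 and 10.9% with WT genotype. None of the 14 classes had marrow groups without overlap in the dividing share. In C1q-low macrophages 38 of 40 members had a positive difference, with medians of 0.65 for S-phase and 0.51 for mitotic members, and Mcm3 stood at 0.68 (SE 0.14, adjusted p = 0.21). Of the same members 4 S-phase genes had all KO-marrow libraries above all WT ones, where 5.41% of all genes did, and 4.52% the reverse.

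In cDC1 the mitotic level was lower with KO marrow and did not overlap, the only one of the 14 classes so placed and described here for that reason, at 627, 839 and 282 CPM (intact, KO host, WT host) against 1320.03, 1174 and 1361 CPM with WT genotype (intact, KO host, WT host). Their ratio of S-phase to mitotic RNA was 1.46, 1.73 and 1.38 against 0.692, 0.707 and 0.497. The shares of dividing cDC1 overlapped, from 18.8 to 32.1% with KO and 17.9 to 29.6% with WT marrow. With 16 to 53 cells per library and most UMIs in 5 cells, the level rests on few cells, and no test of it was made.

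**Figure D5:**
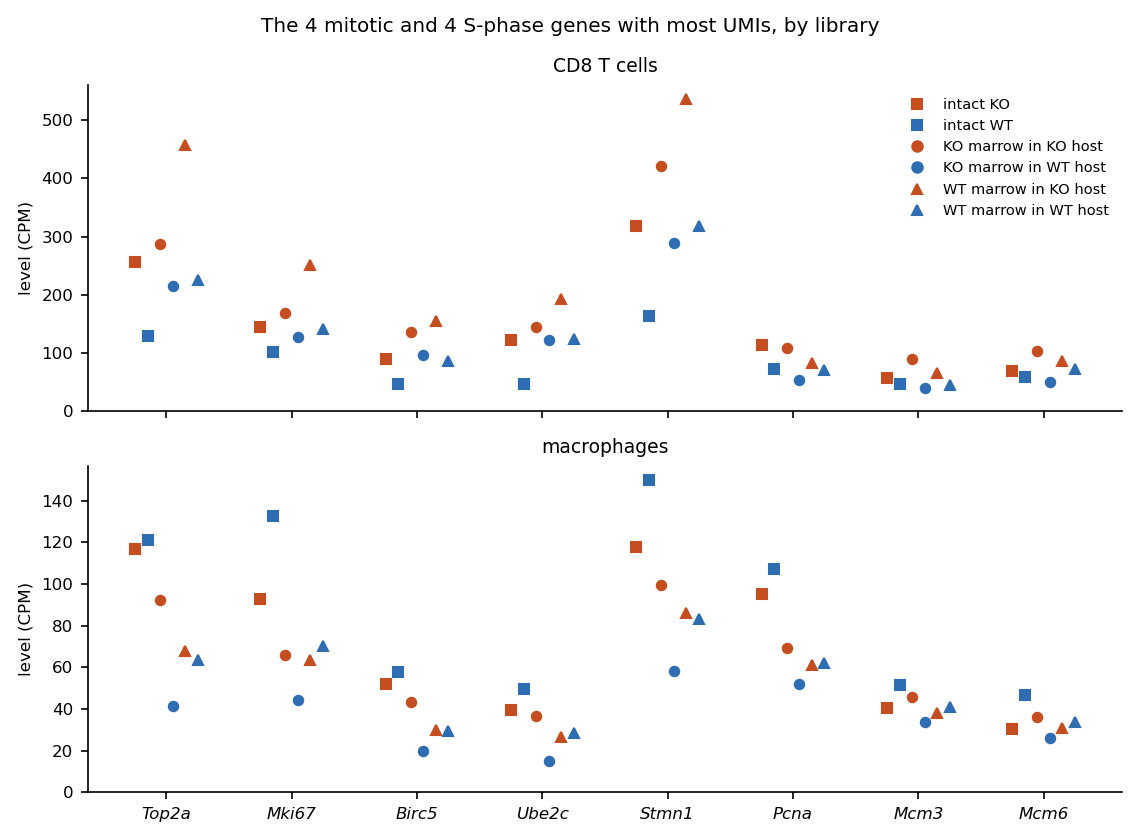
Level (CPM) of the 4 mitotic and 4 S-phase members with most UMIs in macrophages and CD8 T cells, 1 point per library. In CD8 T cells Top2a ran from 129 to 458 CPM, and in macrophages from 41.3 to 121 CPM with both intact libraries highest.

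More members were called with transplantation than with either genotype, lower in macrophages and higher in CD8 T cells. In macrophages Top2a stood at 117 and 121 CPM in the intact KO and WT libraries and 92.5, 41.3, 67.98 and 63.8 CPM in the transplanted ones (KO marrow in KO and WT host, WT marrow in KO and WT host). Mki67 stood at 92.9 and 133 CPM in the intact KO and WT libraries and 66.1, 44.5, 63.4 and 70.4 CPM in the transplanted ones (KO marrow in KO and WT host, WT marrow in KO and WT host), and Pcna at 95.3 and 107 CPM in the intact KO and WT libraries and 69.5, 51.9, 61.2 and 62.004 CPM in the transplanted ones (KO marrow in KO and WT host, WT marrow in KO and WT host). For these 3 genes the intact libraries were the highest, as they were for 26 of 40 members, where 33.3% of all genes were so placed and 10.8% lowest. With the transplantation term 5 members were lower and 0 higher, below the 19.7% of all genes that were lower (higher: 5.98%): Kif11 (-1.06 (SE 0.26, adjusted p = 0.042)), Bub1 (-0.96 (SE 0.21, adjusted p = 0.03)), Nusap1 (-0.92 (SE 0.24, adjusted p = 0.049)), Mki67 (-0.72 (SE 0.19, adjusted p = 0.0497)) and Pcna (-0.57 (SE 0.14, adjusted p = 0.041)). By the count of these edgeR calls the members do not stand out in macrophages. By unadjusted levels, both intact libraries were highest for 19 of 21 mitotic and 7 of 19 S-phase members. The calls fell to 0 when a transplanted library other than KO marrow in the KO host was left out. Without KO marrow in the KO host 22 were called. DESeq2 called 13 members lower, where it called 2869 of all genes lower and 1304 higher. With library totals, edgeR called 12 members lower, where 3438 of 14826 genes were lower.

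The other abundant macrophage members followed the same order. Birc5 stood at 52.04 and 57.9 CPM in the intact KO and WT libraries and 43.4, 19.6, 30.02 and 29.5 CPM in the transplanted ones (KO marrow in KO and WT host, WT marrow in KO and WT host), and Ube2c at 39.8 and 49.7 CPM in the intact KO and WT libraries and 36.9, 15.03, 26.5 and 28.3 CPM in the transplanted ones (KO marrow in KO and WT host, WT marrow in KO and WT host). Stmn1 stood at 118 and 150.1 CPM in the intact KO and WT libraries and 99.8, 58.3, 86.2 and 83.1 CPM in the transplanted ones (KO marrow in KO and WT host, WT marrow in KO and WT host). The helicase genes were flatter, with Mcm3 at 40.7 and 51.7 CPM in the intact KO and WT libraries and 45.8, 33.96, 38.04 and 40.8 CPM in the transplanted ones (KO marrow in KO and WT host, WT marrow in KO and WT host) and Mcm6 from 26.1 to 46.9 CPM, and both overlap between intact and transplanted mice.

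In CD8 T cells 11 of 39 members were higher after transplantation and 0 lower, where 7.09% of all genes were higher and 18.2% lower. They were Uhrf1 (1.04, SE 0.36), Ccnb2 (1.01, SE 0.25), Birc5 (0.94, SE 0.21), Ube2c (0.93, SE 0.24), Hmmr (0.92, SE 0.24), Cdc20 (0.92, SE 0.30), Cdk1 (0.87, SE 0.25), Stmn1 (0.86, SE 0.18), Ccna2 (0.79, SE 0.27), Top2a (0.75, SE 0.20) and Mki67 with 0.58, and their adjusted p-values ran from 0.0028 to 0.045. Ccnb2 stood at 40.5 and 19.1 CPM in the intact KO and WT libraries and 61.2, 44.3, 77.3 and 50.8 CPM in the transplanted ones (KO marrow in KO and WT host, WT marrow in KO and WT host), and the intact libraries were the lowest. That placing held for 5 of the 39 members, where 12.5% of all genes were so placed, and 1 member had both intact libraries highest (28.0% of all). The unadjusted levels thus separate intact from transplanted mice no more often for the members than for genes in general. With library totals in place of TMM scaling 6 members were called, with DESeq2 5, without the intact WT library 2 and without the intact KO library 7.

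Conventional CD4 T cells had 10 of 22 tested members higher, where 6.23% of genes were, from Birc5 (3.52), Ccnb2 (2.697), Cenpe (2.49), Tyms (2.003) and Cdk1 (1.92) to Top2a (1.63), Rrm2 (1.603), Stmn1 (1.52), Nusap1 (1.49) and Cenpf (1.15). These values rest on 29 to 105 cells per library. In unadjusted levels 4 of the 22 had both intact libraries lowest, where 17.2% of all genes did, and 0 had them highest (26.9% of all). C1q-low macrophages had Ccnb2 (-0.75) and Pcna (-0.43) lower, of 40 tested (background 18.0%), and NK cells Kif11 (-1.67), of 30 tested (background 13.2%). Neutrophils had 5 of 8 tested lower, namely Kif11 (-4.899), Top2a (-3.64), Mki67 (-3.17), Stmn1 (-2.32) and Rrm1 (-2.12) (background 8.8%), beside the 4 precursor-like cells of the intact KO library described above. All 8 tested members had both intact libraries highest in unadjusted levels, where 26.3% of all genes were so placed. Members may have passed the count filter through those libraries, so 5 of 8 cannot be read against the background. DESeq2 called 4 members in the CD4 T cells, 4 in neutrophils and 0 in C1q-low macrophages and NK cells. Leaving out 1 library gave 3 to 13 calls in the CD4 T cells (3 without KO marrow in the KO host, 4 without the intact KO library, 5 without WT marrow in the WT host) and 1 to 11 in neutrophils (1 without the intact KO library, 2 without WT marrow in the KO host, 11 without the intact WT library). It gave 0 to 2 in C1q-low macrophages (0 without KO marrow in the KO host or either intact library, 1 without KO marrow in the WT host or WT marrow in the KO host) and 0 to 14 in NK cells (14 without the intact KO library, 8 without KO marrow in the KO host, 1 without the intact WT library, otherwise 0). No member was called by either tool in mature dendritic or mesenchymal-like cells, of 6 and 40 tested (0 and 2 at an unadjusted p under 0.05, background 13.5% and 24.4%).

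The difference between the classes was tested in the joint fit. The transplantation effect was more positive in CD8 T cells than in macrophages for 16 of 40 members and less positive for 0, where 0.954% of all genes were called in the first direction and 0.602% in the second. Of the 16, 13 were mitotic, among them the kinase Plk1 with a difference of 1.96 (SE 0.51, adjusted p = 0.042) and Ccnb2 with 1.92 (SE 0.31, adjusted p = 1.2e-04). The 3 S-phase members were Stmn1 with 1.56 (SE 0.24, adjusted p = 0.0012), Tyms with 1.45 (SE 0.30, adjusted p = 0.0039) and Rrm1 with 1.08 (SE 0.29, adjusted p = 0.033). The median difference was 1.58 for mitotic and 0.77 for S-phase members, against 0.13 for all genes. Without the intact WT library, which held 71 CD8 T cells, 3 members were called, and with DESeq2 5. For marrow genotype the same fit called 0 members, with 0 at an unadjusted p under 0.05 (background 0.372%).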

How the data were processed

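RNA was measured with droplet 3′ libraries of single cells, 1 per group, grouped by the sample labels. The authors deposited raw UMI counts for each gene and barcode. Per the file headers they came from Cell Ranger 7.0.1 (intact) and 6.1.1 (transplanted), and per the submitters' processing notes from build mm10, with Seurat also named. The counting of intron reads is not given in the sources. Total counts per library ran from 85616443 to 142779550 UMIs.

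Kept cells had 500 UMIs and 200 genes or more and at most 15% mitochondrial UMIs. Scrublet (scanpy 1.11.5, Python 3.11.15) called 0 to 172 doublets per library, so in each library the top 6% by doublet score were removed. Cells were assigned by marker genes, with thresholds set after seeing the data, and none of the 40 members was used. UMIs were summed per class and library and scaled to CPM of the shared genes. Sums of classes with at least 20 cells in every library were entered into edgeR 4.0.16 (TMM, filterByExpr and the robust quasi-likelihood test, R 4.3.3, limma 3.58.1) with terms for transplantation, host and marrow genotype, which leaves 2 residual degrees of freedom, or against macrophages with a library block. Adjusted p-values are Benjamini-Hochberg values over all genes tested, with a threshold of 0.05. SEs were derived from the log2 fold change and the F statistic. The calculation was tested on simulated counts. DESeq2 1.42.0 was an alternative. Fits that compare the effects in CD8 T cells and macrophages were added after seeing the data.

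Results that rest on 2 further genes, among them 1 alternative for the CD8 class, are not reported here. The members, the other gene lists and the classes were chosen with earlier results of these data known. Members past the threshold are named, up to 10 per class, direction and term, and the 4 members of each list with most UMIs are given by library. Gene coordinates are those of GENCODE M21 on GRCm38, and promoter sequences are from RefSeq (GRCm38.p6).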

Additional observations from a re-analysis of the deposited data

Results flagged for a closer look

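For 16 members the effect of transplantation differed between CD8 T cells and macrophages by a test of the difference itself (edgeR's quasi-likelihood test of both classes with a library block, Benjamini-Hochberg adjusted p under 0.05 over 14773 genes). The differences, CD8 T cells minus macrophages on the log2 scale, were as follows. Among mitotic kinases and cyclins, Plk1 differed by 1.96, Ccnb2 by 1.92, Bub1 by 1.72, Ccna2 by 1.61 and Cdk1 by 1.33. Among spindle and centromere genes, Hmmr differed by 1.66, Cenpf by 1.58, Kif11 by 1.46, Tpx2 by 1.37 and Cenpe by 1.17. The chromosome genes Birc5 and Mki67 differed by 1.75 and 1.44, and Cdc20 by 1.69. The S-phase members Stmn1, Tyms and Rrm1 differed by 1.56, 1.45 and 1.08. Each was flagged because the 2 classes moved apart under the same contrast. Transplantation and the version of the counting software cannot be told apart here.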

How the results depend on the processing

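No paired analysis was possible because each group has 1 library and the replicate numbers were given in accession order. Counts below are members called among those tested. The main host, marrow and transplantation fits tested 40 in macrophages, C1q-low macrophages and mesenchymal-like cells. They tested 39 in CD8 T cells, 30 in NK cells, 22 in conventional CD4 T cells, 8 in neutrophils and 6 in mature dendritic cells. Alternative settings can test other numbers. Most counts stand without the share of all genes called in that setting. With host genotype, the 2 CD8 T-cell calls became 9 without a count filter and 0 with DESeq2, with doubled gates and with 1 term for KO host with KO marrow, and ran from 0 to 3 when 1 library was left out. That single term sets libraries with both KO host and KO marrow genotype against all others, so it cannot separate host from marrow. It gave 2 in macrophages and 1 in mesenchymal-like cells, where the main count was 0 for host and for marrow genotype. Mature dendritic cells had 1 without a count filter. Leaving out 1 library gave 0 to 3 host calls in conventional CD4 T cells and 0 to 1 in mesenchymal-like cells. For marrow genotype, the 4 transplanted libraries alone gave 1 in conventional CD4 T cells (0 to 1 when 1 library was left out) and 5 in NK cells (0 to 6, with 6 without either intact library). Against macrophages, C1q-low macrophages had 15 with DESeq2, 2 with doubled gates and 4 to 13 when 1 library was left out (main 9), and conventional CD4 T cells 10 with library totals and 4 to 14 (main 5, 14 without the intact KO library).

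With transplantation, macrophages had 12 with library totals, 13 with DESeq2, 2 without doublet removal, 3 with doubled gates and 0 to 22 when 1 library was left out (main 5). CD8 T cells had 6 with library totals, 5 with DESeq2, 6 with doubled gates and 2 to 15 (main 11). The CD8 minus macrophage difference had 9 with library totals, 10 with a stricter gate, 9 with doubled gates, 5 with DESeq2 and 3 to 24 (main 16), and that of the host effect 0 to 1. Library totals moved the median of all genes with transplantation from 0.03 to -0.12 in macrophages and from 0.06 to -0.09 in CD8 T cells. They changed the split of all genes to 231 higher and 3438 lower in macrophages (main 887 and 2921), 198 and 1783 in CD8 T cells (main 604 and 1547), and 4619 and 4219 for CD8 T cells against macrophages (main 3606 and 5032), where 35 members were then higher. The cause of these changes was not tested.

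Without thinning the dividing shares were 34.2% in macrophages, 32.7% in C1q-low macrophages, 5.95% in monocytes, 42.1% in cDC1, 29.3% in cDC2, 10.4% in mature dendritic cells, 23.8% in CD8 T cells, 15.6% in conventional CD4 T cells, 31.4% in NK cells and 68.9% in mesenchymal-like cells. Thinning to 1000 UMIs gave 0.324% in monocytes and 15.1% in cDC1. Without Stmn1 the S-phase to mitotic ratio was 0.867 in macrophages, 0.54 in CD8 T cells and 0.514 in mesenchymal-like cells. Doubled gates gave a ratio of 1.27 in C1q-low macrophages and 3.49 in NK cells, a stricter gate 3.52 in NK cells and 1.901 in conventional CD4 T cells, and no doublet removal 4.61 in monocytes. With a stricter gate the mitotic level of regulatory T cells was 1688 CPM. Small classes limit all of these values.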

Other observations

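Cells outside the 14 classes carried the members too. T or NK cells that met no single subset gate (642 cells) held a mitotic level of 253 to 1279 CPM and divided at 3.64 to 16.3% per library. Cells with no class (1291) divided at 1.25 to 17.2%, and cells with markers of more than 1 lineage (542) at 2.703 to 20%. No comparison was made between them.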
